A study of Mus musculus with 12 samples.

Results

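The genes of the G1 phase that were described are 10: the cyclin-dependent kinase (CDK) inhibitors Cdkn1a, Cdkn1b and Cdkn2c, the pocket protein gene Rbl2, the cyclin genes Ccnd2, Ccnd3, Ccne1 and Ccng2, and the kinase genes Cdk4 and Cdk6. They were chosen by gene symbol, and each of the 10 had 1 row among the 13283 genes of the expression table. The cells were cytotoxic T lymphocytes (CTL), the killer form of CD8 T cells, raised in culture from lymph nodes or spleens of female mice aged 11 to 27 weeks. All mice carried a Cre recombinase driven by the granzyme B promoter, so that deletion follows activation and is limited to cells that turn this promoter on. WT CTL carried the Cre with an intact Foxo1 gene, and FOXO1-GFP KO CTL came from mice whose Foxo1-GFP allele has exon 2 flanked by loxP sites. T cells were activated for 48 h with antibodies to CD3 and CD28 with 20 ng/mL IL-2 plus 2 ng/mL IL-12, and stayed in these cytokines. On day 6 they were plated for 24 h with vehicle (DMSO) or with IC87114 at 10 µM, which blocks the p110δ form of PI3K (PI3Kdi), and the medium was renewed 2 h before harvest. CD8+ cells were sorted, FOXO1-GFP KO cells also for loss of GFP. The 4 groups, named WT, WT+PI3Kdi, FOXO1-GFP KO and FOXO1-GFP KO+PI3Kdi, held 3 libraries each.

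The cyclin-dependent kinases CDK4 and CDK6 are switched on by D cyclins and CDK2 by E cyclins, and together they phosphorylate the retinoblastoma family of pocket proteins, which frees E2F transcription factors and lets the cell enter S phase. INK4 proteins such as p18 (Cdkn2c) bind CDK4 and CDK6, and CIP/KIP proteins such as p21 (Cdkn1a) and p27 (Cdkn1b) bind cyclin-CDK complexes. FOXO factors, which PI3K and AKT signalling keep out of the nucleus, are known activators of Cdkn1b, Rbl2 and Ccng2 in several cell types, and CTL in IL-2 divide rapidly.

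Depth was recovered from the spacing of low values and lay between 12.9 and 48.0 M reads (mega reads) per library. Group means were highest in WT (33.7 M) and lowest in WT+PI3Kdi (16.6 M). Behind the member values stood 281 to 854 estimated reads per library for Ccng2, the lowest member, and 8638 to 29459 for Ccnd3. Foxo1, which checks the genotype labels, was at 5.77 to 10.46 FPKM in the 6 WT libraries and at 0.58 to 1.75 FPKM in the 6 FOXO1-GFP KO libraries. Libraries with the same replicate number within a genotype deviated together from their group means (correlation 0.594 to 0.838 over 10373 genes). Each comparison is therefore given without a block, which was the planned fit, and with the replicate pair within a genotype as a block. Calling an mRNA required an adjusted p under 0.05 (Benjamini-Hochberg over the whole table) together with a fold change over 1.5. Log2 fold changes refer to log2(FPKM + 0.1). The authors generated 3 biological replicates per condition, but whether a pair comes from 1 mouse is not given by the labels. Without a block the p-values measure the spread between these libraries. With the block, those for PI3Kdi rest on a spread reduced by the correlation within pairs.

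Few of the 10 genes differed between groups beyond the spread of the libraries. Cyclin E1 mRNA (Ccne1) was higher in all 6 FOXO1-GFP KO libraries than in all 6 WT libraries, and the difference passed the adjusted p in PI3Kdi-treated CTL. Cdkn1b was higher with PI3Kdi in every replicate pair of both genotypes, by a fold of 1.51 in WT and of 1.43 in FOXO1-GFP KO, and passed the adjusted p with the replicate block alone. Cdkn1a was lower with PI3Kdi in the 3 WT pairs and passed with the block in WT CTL. The other 7 members passed in none of the 5 comparisons, either without a block or with the pair as a random effect.

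**Figure D1:**
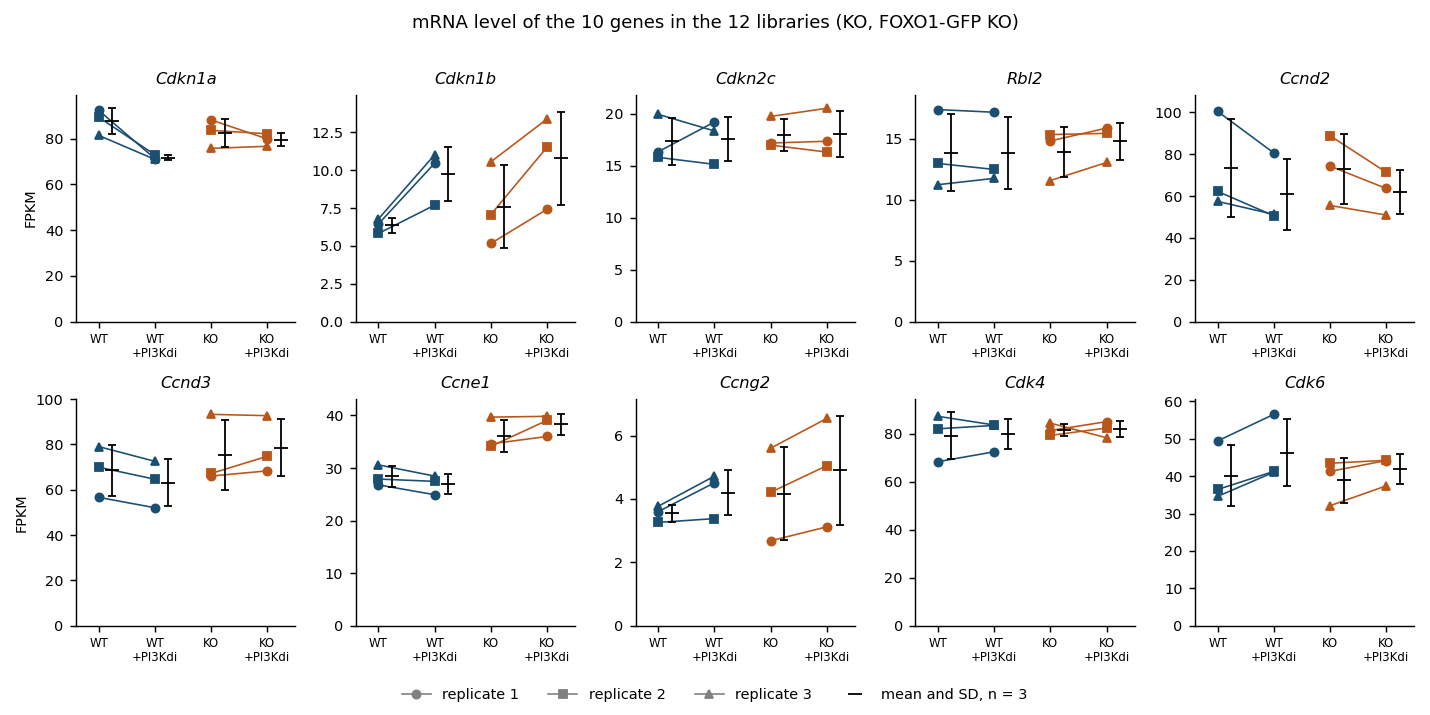
Level of each gene in FPKM (vertical axis, from 0) in the 4 groups. Markers are replicates 1 to 3, lines join the libraries of a replicate pair, and black bars give the mean and SD (n = 3). Ccne1 is the gene in which the FOXO1-GFP KO libraries all lie above the WT libraries, and Cdkn1b, Ccng2 and Cdk6 slope upward with PI3Kdi in every pair.

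By level per length of transcript, the order of the means over the 12 libraries was Cdk4 (80.6 FPKM), Cdkn1a (80.4), Ccnd3 (71.4), Ccnd2 (67.3), Cdk6 (41.8), Ccne1 (32.5), Cdkn2c (17.7), Rbl2 (14.1), Cdkn1b (8.61) and Ccng2 (4.20). Cdk4 stood at the 95.3 percentile of all genes and Ccng2 at the 46.2 percentile. Between neighbours in this order, Ccne1 and Cdkn2c alone had ranges that did not overlap. Ccnd2 was above Cdk6, Ccne1 above Cdkn2c and Cdkn1b above Ccng2 in 12 of 12 libraries, while Cdk4 and Cdkn1a, at nearly the same mean, changed places in 4 of 12. The 2 CIP/KIP inhibitors thus stood far apart in level, Cdkn1a at the 95.2 percentile of all genes and Cdkn1b at the 62.4 percentile.

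Counted over the 10 genes, limma without a block called 0 in WT CTL given PI3Kdi, against 0.0979% of all genes, while 2 had an unadjusted p under 0.05 (background 5.14%). For FOXO1-GFP KO CTL it called 0 (background 0.0452%), with 0 at an unadjusted p under 0.05 (background 5.17%). Between genotypes it called 0 in vehicle (background 0.331%), with 1 at an unadjusted p under 0.05 (background 6.51%). Under PI3Kdi it called 0 (background 1.45%), though 1 passed the adjusted p (background 1.54%) and 1 an unadjusted p of 0.05 (background 10.2%). For the difference of the responses, 0 members and 0% of all genes were called, and 0 members had an unadjusted p under 0.05 (background 1.51%). Voom on estimated reads also called 0 members in each of the 5 comparisons.

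With the replicate block, 1 member (Cdkn1b) was called in WT CTL against 2.57% of all genes, 2 passed the adjusted p against 7.41%, and 4 had an unadjusted p under 0.05 against 23.7%. Blocking called 0 in FOXO1-GFP KO CTL (background 2.79%), 1 passed the adjusted p (background 10.1%), and 2 had an unadjusted p under 0.05 (background 29.5%). In the genotype comparisons it called 0 in vehicle (background 0.233%) and 0 under PI3Kdi (background 1.18%), where 1 passed the adjusted p (background 1.25%), and it called 0 for the difference of responses (background 0.0226%). With 10 members, 1 gene is 10% of them, so shares this close to the background are no result about the members as a group. The median member moved with PI3Kdi by 0.01 (log2) in WT and by 0.08 in FOXO1-GFP KO, beside -0.04 and -0.02 over all genes. Between genotypes it was 0.05 in vehicle and 0.12 under PI3Kdi, beside -0.01 and 0.01.

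**Figure D2:**
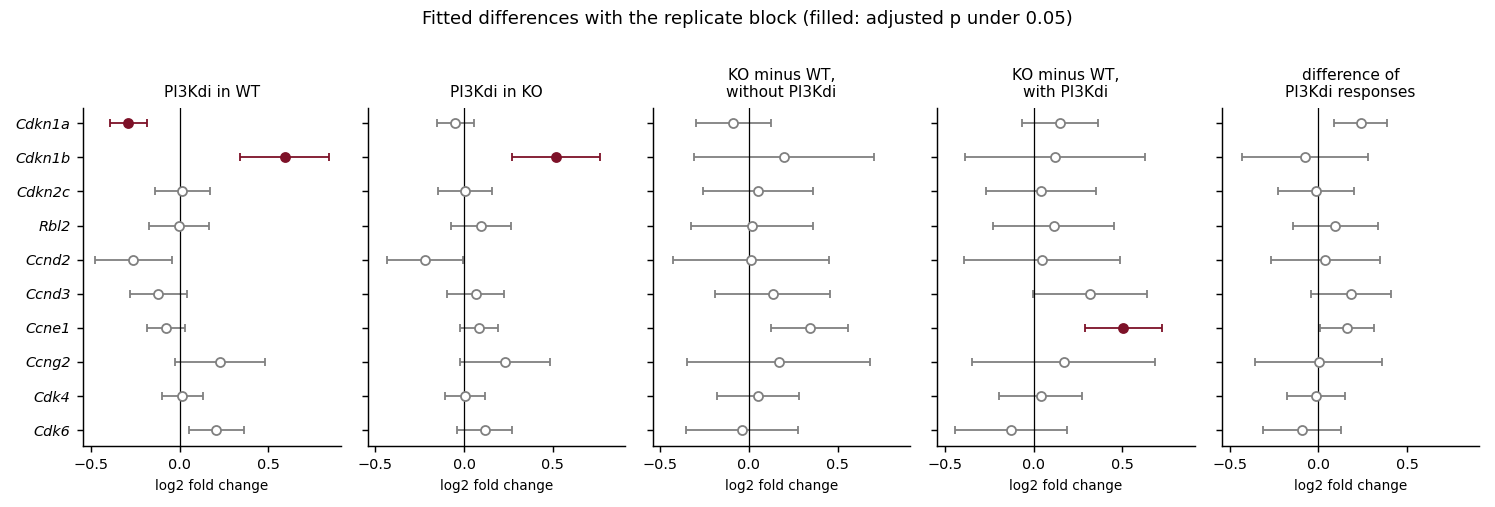
Log2 fold change of each gene in the 5 comparisons (horizontal axis), with 95% confidence intervals from the fit with the replicate block. Filled markers have an adjusted p under 0.05: Cdkn1a (-0.29) and Cdkn1b (0.59) with PI3Kdi in WT, Cdkn1b (0.52) with PI3Kdi in FOXO1-GFP KO, and Ccne1 (0.51) between genotypes with PI3Kdi.

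Cdkn1b encodes p27, the CIP/KIP inhibitor best known for holding cyclin E-CDK2 in check in resting cells. In GRCm38 it spans bases 134920401 to 134925513 of chromosome 6, plus strand. Its promoter is shown because FOXO factors are known to act on this gene. The RefSeq window covers 250 bases before to 50 bases after the start of the transcript (GRCm38.p6, plus strand, chr6:134920151-134920450). Neither the forkhead core GTAAACA nor the E2F sites TTTCCCGC and TTTGGCGC or the E box CACGTG, searched on both strands, occurs in these letters, so that no base is in capitals.
Cdkn1b promoter: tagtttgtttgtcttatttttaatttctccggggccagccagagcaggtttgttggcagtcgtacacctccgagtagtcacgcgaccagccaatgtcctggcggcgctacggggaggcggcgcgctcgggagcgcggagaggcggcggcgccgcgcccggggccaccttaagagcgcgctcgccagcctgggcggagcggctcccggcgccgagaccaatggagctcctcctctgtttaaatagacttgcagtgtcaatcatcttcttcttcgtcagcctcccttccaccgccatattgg

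Cdkn1b mRNA was at 6.45, 5.82 and 6.78 FPKM in WT replicates 1 to 3 and at 10.46, 7.69 and 11.02 FPKM in WT+PI3Kdi. The 3 WT libraries all lay below the 3 WT+PI3Kdi libraries. Means were 6.35 ± 0.488 and 9.72 ± 1.78 FPKM (SD, n = 3), which is 0.59 higher on the log2 scale (95% interval 0.34 to 0.84; adjusted p = 0.953 without a block and 0.00937 with the replicate block). The planned fit without a block gave an interval of 0.01 to 1.17. The FOXO1-GFP KO libraries held 5.16, 7.07 and 10.55 FPKM, and the FOXO1-GFP KO+PI3Kdi libraries held 7.42, 11.52 and 13.38 FPKM. Replicate 1 was the lowest and replicate 3 the highest of both FOXO1-GFP KO groups, so the groups overlapped although each pair was higher with PI3Kdi. In these cells the log2 fold change was 0.52 (interval 0.27 to 0.77; adjusted p = 0.934 without and 0.0180 with the block), under the fold of 1.5. Without a block the interval in FOXO1-GFP KO CTL was -0.06 to 1.10. The pair differences were 0.69, 0.40 and 0.69 in WT and 0.52, 0.70 and 0.34 in FOXO1-GFP KO CTL, on the log2 scale.

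The difference between the Cdkn1b responses of the genotypes was -0.08 (interval -0.43 to 0.28; adjusted p = 1.0 without and 0.886 with the block). Between genotypes Cdkn1b differed by 0.20 without PI3Kdi (interval -0.31 to 0.70) and by 0.12 with it (-0.38 to 0.63), neither past the threshold. The FOXO1-GFP KO libraries varied more than the WT libraries (coefficient of variation 36.0% against 7.68%). The blocked result was lost without some libraries and kept without others. In WT CTL the adjusted p was 0.0594 without WT replicate 1, 0.0668 without WT+PI3Kdi replicate 1 and 0.0607 without WT+PI3Kdi replicate 3, and it was 0.128 without both libraries of pair 1 and 0.0875 without pair 3, but 0.0242 without pair 2. In FOXO1-GFP KO CTL it was 0.0666 and 0.109 without FOXO1-GFP KO replicates 1 and 2, 0.102 and 0.0685 without FOXO1-GFP KO+PI3Kdi replicates 2 and 3, and 0.149 without pair 2, but 0.0319 without pair 1 and 0.0232 without pair 3. The log2 fold change stayed between 0.53 and 0.71 in WT and between 0.43 and 0.65 in FOXO1-GFP KO CTL in these fits. A pseudocount of 1 FPKM with the block lowered the fold in WT CTL to a log2 of 0.53, under the fold needed for a call.

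Cdkn1a encodes p21, the CIP/KIP inhibitor induced by p53 and by mitogenic signals alike. It lies on chromosome 17 from 29090976 to 29100727 (plus strand). Its exons share bases with AC167363.2 on the other strand, which has no row in the expression table. Cdkn1a mRNA was at 92.35, 89.35 and 81.42 FPKM in WT and at 71.23, 72.93 and 70.90 FPKM in WT+PI3Kdi. These groups did not overlap, and the treated libraries had a coefficient of variation of 1.52%. Means were 87.7 ± 5.65 and 71.7 ± 1.09 FPKM (SD, n = 3), which gave a log2 fold change of -0.29 (interval -0.39 to -0.18; adjusted p = 0.449 without a block and 0.00395 with it), a fold of 0.819. With the block the adjusted p was 0.0643 without pair 1 of WT and 0.0511 without pair 2.

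The FOXO1-GFP KO libraries held Cdkn1a at 88.17, 83.62 and 75.75 FPKM, and the FOXO1-GFP KO+PI3Kdi libraries at 79.86, 82.11 and 76.65 FPKM. The libraries of these groups overlapped, replicate 3 was a little higher with PI3Kdi, and the log2 fold change was -0.05 (interval -0.16 to 0.05; adjusted p = 0.493 with the block). The difference of the responses was 0.24 (interval 0.09 to 0.39), with an unadjusted p of 0.00433 and an adjusted p of 0.203 in the blocked fit and of 1.0 without a block, so a difference between genotypes in the response of Cdkn1a was not shown. With PI3Kdi, the 3 FOXO1-GFP KO libraries all lay above the 3 WT libraries, by 0.15 (interval -0.06 to 0.36; adjusted p = 0.649 without and 0.729 with the block). Cell type markers also moved with PI3Kdi in the blocked fit that passed Cdkn1b and Cdkn1a. Of 6 CD8 T cell markers, Cd8a was higher and Prf1, the perforin gene, lower in WT CTL. In FOXO1-GFP KO CTL 5 passed, with Cd3e, Cd3g, Cd8a and Cd8b1 higher and Prf1 lower. Over all genes, 7.41% passed the adjusted p in WT CTL and 10.1% in FOXO1-GFP KO CTL, in either direction. Mean Cd8a was 153.9 and 189.1 FPKM in WT CTL without and with PI3Kdi, and 171.3 and 220.4 FPKM for FOXO1-GFP KO. Mean Prf1 was 414.4 and 297.4 FPKM, and 435.8 and 329.4 FPKM, in the same order. In WT CTL the block called Cd4 (means 0.520 and 0.893 FPKM) and Igkc, a B cell marker (0.907 and 2.14 FPKM), as higher. There 2.57% of all genes were called, and Ighm passed the adjusted p as higher (8.67 and 12.3 FPKM). The other CD4 T cell and B cell markers with a row did not pass in WT CTL. These were Cd40lg (means 0.643 and 0.613 FPKM) and Cd79b (3.61 and 3.67 FPKM). Without a block limma passed 0 of these markers with PI3Kdi. An unadjusted p under 0.05 was seen for 1 B cell marker in WT CTL (background 5.14%). In FOXO1-GFP KO CTL it was seen for 2 CD8 T cell markers (background 5.17%). Their part in the Cdkn1b and Cdkn1a results was not tested.

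Libraries of WT and WT+PI3Kdi did not overlap in 2 of 10 members (Cdkn1a and Cdkn1b) and in 10.2% of all genes, and those of FOXO1-GFP KO with and without the inhibitor in 0 members and 10.1% of all genes. Between genotypes this was so for 1 member in vehicle (Ccne1; background 10.3%) and 2 under PI3Kdi (Cdkn1a and Ccne1; background 14.8%).

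Cdkn2c, whose product p18 blocks CDK4 and CDK6, lies on chromosome 4 from 109660876 to 109667189 (minus strand). It was at 16.34, 15.80 and 19.94 FPKM in vehicle and 19.20, 15.13 and 18.34 FPKM with PI3Kdi in WT CTL, and at 17.18, 16.98 and 19.74 FPKM in vehicle and 17.35, 16.31 and 20.52 FPKM with PI3Kdi in FOXO1-GFP KO CTL. Replicate 2 was the lowest library of every group, and the groups overlapped throughout. PI3Kdi gave a log2 fold change of 0.02 in WT (interval -0.14 to 0.17) and 0.00 in FOXO1-GFP KO CTL (-0.15 to 0.16), so a fold of 1.5 lies outside both intervals.

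Rbl2 encodes p130, the pocket protein that holds E2F target genes silent in quiescent cells, and lies on chromosome 8 from 91070057 to 91123844 (plus strand). Its exons share bases with Aktip and Gm45464 on the other strand, and the strand setting of the counting is not given in the sources used here, so its level is uncertain to that extent. Rbl2 was at 17.39, 12.97 and 11.23 FPKM in vehicle and 17.17, 12.48 and 11.75 FPKM with PI3Kdi in WT CTL, and at 14.82, 15.34 and 11.57 FPKM in vehicle and 15.87, 15.44 and 13.05 FPKM with PI3Kdi in FOXO1-GFP KO CTL. Within a pair the values were nearly alike, and between pairs they differed by up to 1.55-fold. Its response to PI3Kdi on the log2 scale was -0.00 in WT (interval -0.17 to 0.17) and 0.09 in FOXO1-GFP KO CTL (-0.08 to 0.26), and between genotypes 0.02 without and 0.11 with PI3Kdi.

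**Figure D3:**
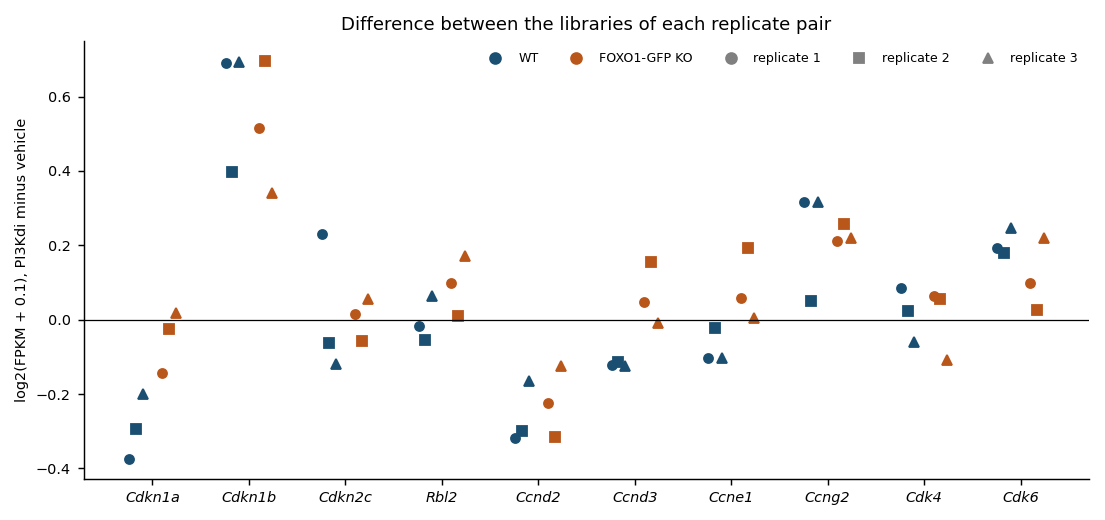
Difference in log2(FPKM + 0.1) between the PI3Kdi and the vehicle library of each replicate pair (vertical axis), by gene and genotype; marker shapes give the replicate. All 6 Cdkn1b values lie between 0.34 and 0.70 and all 6 Ccnd2 values between -0.32 and -0.12, while the Ccne1 values lie below 0 in WT and above 0 in FOXO1-GFP KO.

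The D cyclins carry mitogen signals to CDK4 and CDK6, and T cells use cyclins D2 and D3 rather than D1. Ccnd2 lies on chromosome 6 from 127125162 to 127152193 (minus strand). It was at 100.46, 62.23 and 57.45 FPKM in WT and at 80.57, 50.56 and 51.24 FPKM in WT+PI3Kdi. The FOXO1-GFP KO libraries held 74.30, 88.83 and 55.51 FPKM, and the FOXO1-GFP KO+PI3Kdi libraries held 63.63, 71.37 and 50.91 FPKM. WT replicate 1 stood far above the other WT libraries, the groups overlapped, and yet every treated library lay below its partner, by 0.32, 0.30 and 0.16 in WT and 0.22, 0.32 and 0.12 in FOXO1-GFP KO CTL on the log2 scale. The log2 fold change was -0.26 in WT (interval -0.48 to -0.04; adjusted p = 1.0 without a block and 0.135 with it) and -0.22 in FOXO1-GFP KO CTL (interval -0.44 to -0.00; adjusted p = 0.162 with the block). Without a block the intervals were -0.82 to 0.30 in WT and -0.78 to 0.34 in FOXO1-GFP KO CTL. With the pairs as fixed terms the adjusted p came to 0.0228 for WT and 0.0261 for FOXO1-GFP KO, so that this member passed under 1 of the 2 forms of the block. The exons of Ccnd2 share bases with Gm43126 and 9330179D12Rik on the other strand.

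Ccnd3 lies on chromosome 17 from 47505051 to 47599691 (plus strand), with RefSeq transcripts from 2 starts. The promoter of the upstream start is shown because it holds the 1 forkhead core among the promoters of the members, in capitals, beginning 243 bases before the start (GRCm38.p6, plus strand, chr17:47504801-47505100). Of 12228 promoters of genes in the table, 2.53% hold this core, and 9 of the 10 members had a promoter entry, with 12 entries in all (Ccnd2 had none).
Ccnd3 upstream promoter: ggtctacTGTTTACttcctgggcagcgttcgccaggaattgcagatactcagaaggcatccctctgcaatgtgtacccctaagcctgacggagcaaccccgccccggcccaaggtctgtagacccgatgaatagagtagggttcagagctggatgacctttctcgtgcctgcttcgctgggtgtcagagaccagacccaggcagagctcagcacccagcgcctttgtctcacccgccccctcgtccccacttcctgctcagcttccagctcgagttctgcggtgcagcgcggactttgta

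Ccnd3 was at 56.63, 69.92 and 79.01 FPKM in vehicle and 52.05, 64.62 and 72.51 FPKM with PI3Kdi in WT CTL, and at 66.04, 67.16 and 93.23 FPKM in vehicle and 68.31, 74.76 and 92.65 FPKM with PI3Kdi in FOXO1-GFP KO CTL. Replicate 1 was lowest and replicate 3 highest in all 4 groups. With PI3Kdi the log2 fold change was -0.12 in WT (interval -0.28 to 0.04), with all 3 pairs lower by 0.11 to 0.12, and 0.06 in FOXO1-GFP KO CTL (-0.09 to 0.22). Between genotypes it was 0.13 without PI3Kdi and 0.32 with PI3Kdi (interval -0.00 to 0.64; adjusted p = 0.645 without and 0.567 with the block). Exons of Ccnd3 share bases with Bysl on the other strand.

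Ccne1 encodes cyclin E1, the partner of CDK2 at the entry into S phase and itself a known target of E2F factors. It lies on chromosome 7 from 38097984 to 38107534 (minus strand), and no exon base is shared with another gene. Its promoter is shown because it is the member that differed between genotypes (GRCm38.p6, minus strand, chr7:38107441-38107740). It has a GC content of 76.0%, and none of the forkhead, E2F or E box letters searched is in this window.
Ccne1 promoter: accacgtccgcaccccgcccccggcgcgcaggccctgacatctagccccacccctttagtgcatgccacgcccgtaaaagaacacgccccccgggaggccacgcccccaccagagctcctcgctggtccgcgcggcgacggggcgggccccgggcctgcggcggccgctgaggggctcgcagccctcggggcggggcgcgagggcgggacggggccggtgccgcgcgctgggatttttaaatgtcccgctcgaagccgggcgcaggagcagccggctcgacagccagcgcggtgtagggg

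Ccne1 mRNA was at 26.80, 27.91 and 30.60 FPKM in WT and at 34.60, 34.14 and 39.69 FPKM in FOXO1-GFP KO. With PI3Kdi it was at 24.93, 27.47 and 28.47 FPKM in WT and at 36.01, 39.07 and 39.84 FPKM in FOXO1-GFP KO. The lowest FOXO1-GFP KO library, at 34.14 FPKM, lay above the highest WT library, at 30.60 FPKM, a separation of all 6 from all 6 that 0.896% of all genes showed in this direction. With PI3Kdi the mean was 38.3 ± 2.03 against 26.96 ± 1.82 FPKM (SD, n = 3), which is 0.51 higher on the log2 scale (interval 0.29 to 0.72; adjusted p = 0.0238 without a block and 0.0305 with it), a fold of 1.42 that does not reach 1.5. Among all genes, 0.459% passed the adjusted p as higher in this comparison. Without PI3Kdi the mean was 36.1 ± 3.08 against 28.4 ± 1.95 FPKM (SD, n = 3), which is 0.34 higher on the log2 scale (interval 0.13 to 0.56; adjusted p = 0.233 without and 0.321 with the block), which did not pass.

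Single libraries decided whether Ccne1 passed with PI3Kdi. The adjusted p without a block was 0.05001 without WT replicate 2, then 0.0866, 0.0741 and 0.0543 without WT+PI3Kdi replicates 1, 2 and 3, and 0.104 and 0.0938 without FOXO1-GFP KO+PI3Kdi replicates 2 and 3. It passed in 6 of these 12 fits and in 4 of 18 fits that left out 1 library or 1 pair with the block, while the log2 fold change stayed between 0.45 and 0.55. When the fit held only the libraries of the 2 groups compared, the adjusted p was 0.113. Voom on estimated reads gave 0.0352, and 0.0408 with the block.

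With PI3Kdi itself, Ccne1 was lower by 0.10, 0.02 and 0.10 in the WT pairs and higher by 0.06, 0.19 and 0.01 in the FOXO1-GFP KO pairs, on the log2 scale. Such an opposition of all 3 pairs was seen in 3.03% of all genes. The log2 fold change was -0.08 in WT (interval -0.18 to 0.03) and 0.09 in FOXO1-GFP KO CTL (-0.02 to 0.19), and the difference of these responses was 0.16 (interval 0.01 to 0.31; adjusted p = 1.0 without and 0.419 with the block). In bulk libraries such as these, fewer cells of a kind and less mRNA per cell cannot be told apart, and this holds for Ccne1, whose mRNA is made in a part of the cell cycle. Summed over the 16 proliferation markers, among them Mki67, Top2a and the Mcm2 to Mcm7 helicase genes, WT libraries held 1131 to 1190 FPKM in vehicle and 1105 to 1278 FPKM with PI3Kdi, against 1100 to 1206 and 1037 to 1157 FPKM for FOXO1-GFP KO. These ranges overlapped between genotypes. Taken gene by gene with PI3Kdi, 15 of the 16 markers were lower in FOXO1-GFP KO CTL, at a median log2 fold change of -0.15 (all genes 0.01). The part of cell cycle position in the Ccne1 difference was not tested.

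Markers of B cells moved with genotype beside Ccne1. Cd79b, Ighm and Igkc were in the table, whereas Cd79a and Ms4a1 had no row there. The sum of these 3 genes lay at 11.4 to 15.6 FPKM in vehicle and 15.3 to 19.5 FPKM with PI3Kdi in WT libraries, against 4.48 to 6.88 and 4.31 to 6.36 FPKM for FOXO1-GFP KO. Ighm, the heavy chain gene of IgM, had means of 8.67 FPKM for WT against 2.83 for FOXO1-GFP KO (adjusted p = 0.0153 without and 0.0133 with the block). With PI3Kdi its means were 12.3 against 2.35 FPKM (adjusted p = 0.000831 without and 0.00145 with the block). Mean Igkc, the kappa light chain constant gene, was 0.907 FPKM in WT CTL in vehicle and 2.14 FPKM with PI3Kdi, and 0.153 FPKM in FOXO1-GFP KO CTL in vehicle; the 3 treated FOXO1-GFP KO libraries list it at 0. Their part in the Ccne1 difference was not tested. Of CD8 T cell markers, 6 of 6 were present, Cd8a at 154 to 220 FPKM and Gzmb at 8305 to 9820 FPKM as group means. Myeloid markers (2 of 5 in the table, Itgam at 0.043 to 0.103 FPKM and Cd68 at 18.1 to 23.5 FPKM), CD4 T cell markers (2 of 3, 0.62 to 1.79 FPKM summed) and erythroid markers (0 of 3) were low or absent except for Cd68.

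Ccng2 encodes cyclin G2, an unusual cyclin that rises when cells stop dividing. It lies on chromosome 5 from 93267257 to 93276231 (plus strand). Ccng2 was at 3.60, 3.26 and 3.77 FPKM in WT and at 4.51, 3.38 and 4.72 FPKM in WT+PI3Kdi. The FOXO1-GFP KO libraries held 2.68, 4.21 and 5.60 FPKM, and the FOXO1-GFP KO+PI3Kdi libraries held 3.12, 5.05 and 6.54 FPKM. As for Cdkn1b, replicate 1 was lowest and replicate 3 highest among the FOXO1-GFP KO libraries, and each of the 6 treated libraries lay above its partner. The log2 fold change was 0.23 in each genotype (intervals -0.03 to 0.48 and -0.02 to 0.48; adjusted p = 0.260 for WT and 0.207 for FOXO1-GFP KO, with the block), which did not pass. Between genotypes it was 0.17 both without and with PI3Kdi, with intervals from -0.35 to 0.68 and -0.35 to 0.69.

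Cdk4, the kinase partner of the D cyclins, lies on chromosome 10 from 127063534 to 127067920 (plus strand). Its promoter is shown because it holds 4 copies of the E box CACGTG, the site of MYC and MAX factors, in capitals, the first bases of which lie 172, 118, 98 and 11 bases before the start (GRCm38.p6, plus strand, chr10:127063285-127063584). An E box is found in 9.85% of the promoters of genes in the table, and 1 copy each was found in a promoter of Cdk6 and of Cdkn2c.
Cdk4 promoter: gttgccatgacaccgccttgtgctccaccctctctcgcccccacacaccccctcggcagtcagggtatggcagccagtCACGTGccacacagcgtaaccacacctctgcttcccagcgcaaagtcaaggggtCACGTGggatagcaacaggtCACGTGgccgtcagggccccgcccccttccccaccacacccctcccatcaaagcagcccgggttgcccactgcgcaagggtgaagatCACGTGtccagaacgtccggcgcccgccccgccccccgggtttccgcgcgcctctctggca

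Cdk4 was at 68.30, 81.98 and 87.18 FPKM in vehicle and 72.41, 83.39 and 83.57 FPKM with PI3Kdi in WT CTL, and at 81.27, 79.24 and 84.34 FPKM in vehicle and 84.96, 82.31 and 78.25 FPKM with PI3Kdi in FOXO1-GFP KO CTL. It was the steadiest member, with a highest library 1.28 times its lowest. On the log2 scale PI3Kdi moved it by 0.02 in WT (interval -0.10 to 0.13) and 0.00 in FOXO1-GFP KO CTL (-0.11 to 0.12), and between genotypes it was 0.05 and 0.04. Exons of Cdk4 share bases with Tspan31 on the other strand.

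Cdk6, the second D cyclin kinase, lies on chromosome 5 from 3341485 to 3531008 (plus strand) and shares exon bases with Gm17590 on the other strand. It was at 49.40, 36.42 and 34.59 FPKM in WT and at 56.52, 41.27 and 41.05 FPKM in WT+PI3Kdi. The FOXO1-GFP KO libraries held 41.26, 43.43 and 32.10 FPKM, and the FOXO1-GFP KO+PI3Kdi libraries held 44.16, 44.22 and 37.40 FPKM. The groups overlapped, and each treated library lay above its partner. As a log2 fold change this came to 0.21 in WT (interval 0.05 to 0.36; adjusted p = 0.102 with the block and 0.0404 with the pairs as fixed terms) and 0.11 in FOXO1-GFP KO CTL (interval -0.04 to 0.27; adjusted p = 0.298 with the block).

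Of the 10 members, 3 (Cdkn1b, Ccng2 and Cdk6) were higher with PI3Kdi in all 6 pairs, where 9.2% of all genes were, and 1 (Ccnd2) was lower in all 6, where 14% were. In WT alone, 3 members were higher in all 3 pairs (background 16.7%) and 4 lower (background 29.5%), the latter being Cdkn1a, Ccnd2, Ccnd3 and Ccne1. In FOXO1-GFP KO CTL 5 were higher in all 3 pairs (background 23.1%), namely Cdkn1b, Rbl2, Ccne1, Ccng2 and Cdk6, and 1 was lower (background 26.4%).

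Shares between related members, which do not depend on the scaling of a library, were then computed. Cdkn1b made up 6.78% ± 0.815 of the summed FPKM of Cdkn1a and Cdkn1b in WT and 11.9% ± 2.10 in WT+PI3Kdi (SD, n = 3), and 8.52% ± 3.41 and 11.9% ± 3.20 in FOXO1-GFP KO without and with PI3Kdi. The share was higher with PI3Kdi in every pair, and the groups of WT did not overlap. Ccnd2 made up 51.0% ± 11.4 of the summed FPKM of Ccnd2 and Ccnd3 in WT and 48.7% ± 10.5 in WT+PI3Kdi, and 49.1% ± 10.4 and 44.2% ± 7.55 in FOXO1-GFP KO. It was lower with PI3Kdi in every pair, while in WT alone it ran from 64.0% in replicate 1 to 42.1% in replicate 3. Cdk6 made up 33.7% ± 7.25 of the summed FPKM of Cdk4 and Cdk6 and 36.6% ± 6.24 in WT CTL without and with PI3Kdi and 32.2% ± 4.12 and 33.8% ± 1.34 in FOXO1-GFP KO CTL, and was higher with PI3Kdi in all pairs except replicate 2 of FOXO1-GFP KO.

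**Figure D4:**
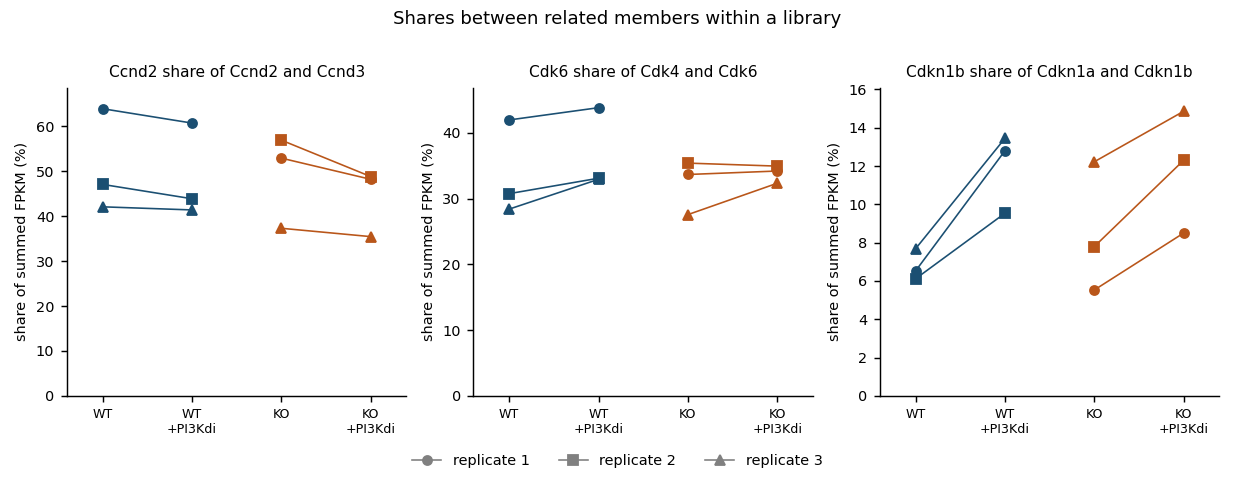
Share of 1 gene in the summed FPKM of a related pair of genes (vertical axes in percent, from 0) in each library; lines join replicate pairs. The Cdkn1b share rises along all 6 lines, from 6.78% to 11.9% on average in WT, and the Ccnd2 share declines along all 6.

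The spread of each member over the 12 libraries was divided into parts. For Ccne1, 84.5% of the sum of squares lay between genotypes and 10.5% between replicate pairs within a genotype. For Cdkn1a, 48.0% followed PI3Kdi and 23.6% the combination of genotype and PI3Kdi. For Cdkn1b, 44.3% followed PI3Kdi and 48.9% the pairs. For the other 7 members the pairs held 72.2 to 93.3%, most for Rbl2. Taking genes whose mean reached 1 FPKM, the median gene had 65.1% between pairs, 8.27% between genotypes and 6.39% with PI3Kdi. What the pairs differ in is not given by the labels.

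**Figure D5:**
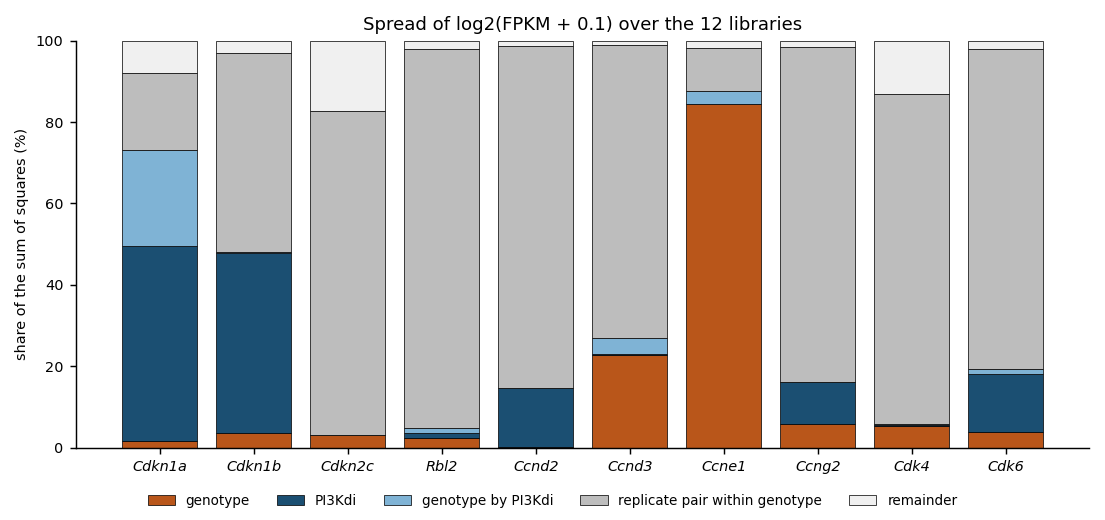
Share of the sum of squares of log2(FPKM + 0.1) over the 12 libraries (vertical axis in percent) that lay between genotypes, with PI3Kdi, in their combination, between replicate pairs within a genotype and in the remainder, for each gene. Genotype takes 84.5% for Ccne1, and pairs take most of the bar for Cdkn2c, Rbl2, Ccnd2, Ccnd3, Ccng2, Cdk4 and Cdk6.

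For each member, the genes with the most similar pattern over the 12 libraries were listed from 9513 genes, by Pearson correlation of log2(FPKM + 0.1). The libraries share groups and pairs, so these values describe this set only. Cdkn1b was nearest to Cd8a (0.964), which encodes a chain of the CD8 co-receptor, then to Cnp (0.946) and Sla2 (0.932). Ccne1 was nearest to Dynlt1b (0.981), Ifitm10 (0.971) and Itpk1 (0.969). Cdkn1a had the nearest genes Herpud1 (0.874), Copg1 (0.863) and Yars (0.855), and Rbl2 had Stat3 (0.976), Atp8b4 (0.971) and Ccdc6 (0.957). For the D cyclins they were Washc2, Itgav and Osbp for Ccnd2 (0.979 to 0.981) and Mien1, Cmtm3 and Irf3 for Ccnd3 (0.971 to 0.981). Cdk6 was nearest to Scaper, Dpy19l3 and Retreg2 (0.954 to 0.984), Cdk4 to Ifi30, Pcbp1 and Psmf1 (0.958 to 0.971), Ccng2 to Art4, Agap2 and Prr12 (0.956 to 0.958) and Cdkn2c to Herc6, Vars2 and Taf4 (0.820 to 0.836).

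The other genes of the G1/S network, which include the E2F factors, the remaining cyclins and inhibitors, the subunits of the DREAM complex that works with p130, and Trp53 with Mdm2, were read from the same fits. Of 36 listed, 35 were in the table, and Cdkn1c was not. Without a block limma called 0 of 35 in each of the 5 comparisons, where 0 to 1.45% of all genes were called. From 0 to 2 had an unadjusted p under 0.05, where 1.51 to 10.2% of all genes did. With shares this low over all genes, 0 called of 35 is no result about the list. With the replicate block 1 was called, Ccnd1, lower with PI3Kdi in WT CTL (log2 fold change -0.63, adjusted p = 0.0475; 2.57% of all genes were called), at mean levels of 0.180 and 0.0833 FPKM that are close to or under the pseudocount, and its adjusted p was 0.0934 with voom and the block. With the block 3 genes passed the adjusted p in WT (Ccnd1, Ccng1 and Mdm2) and 3 in FOXO1-GFP KO CTL (Ccng1, Cdk2 and E2f4), all lower with PI3Kdi, beside 7.41% and 10.1% of all genes in either direction, so these shares of 35 are near the background; all but Ccnd1 are named here after their values were seen. Ccng1 and Mdm2 are known targets of p53, as is Cdkn1a, but a part of p53 in these values was not tested. Ccng1 had means of 138.6 FPKM in WT and 118.5 in WT+PI3Kdi, and of 128.1 and 108.4 in FOXO1-GFP KO without and with PI3Kdi. Mdm2 had means of 25.5 and 20.3 FPKM in WT and of 22.4 and 19.0 FPKM in FOXO1-GFP KO, without and with PI3Kdi. With PI3Kdi the median log2 fold change of the 35 was -0.06 for WT and -0.09 for FOXO1-GFP KO, and it was -0.02 and -0.04 between genotypes without and with PI3Kdi. Over all genes the same medians were -0.04, -0.02, -0.01 and 0.01.

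Of the 16 proliferation markers, limma without a block called 0 in each comparison (background 0 to 1.45%). From 0 to 2 had an unadjusted p under 0.05 (background 1.51 to 10.2%). With the block 0 were called in each comparison (background 0.0226 to 2.79%), so 0 called of 16 is no result about the list. In FOXO1-GFP KO CTL 2 passed the adjusted p as lower with PI3Kdi, Mki67 and Ccnb1, named after their values were seen. There 10.1% of all genes passed in either direction, a share that 2 of 16 is near. Mki67, the Ki-67 antigen gene, went from a mean of 82.9 to 70.9 FPKM and Ccnb1, encoding cyclin B1, from 30.9 to 24.7 FPKM. Across the list, the median log2 fold change with PI3Kdi was 0.01 for WT and -0.09 for FOXO1-GFP KO, and -0.15 between genotypes with PI3Kdi (all genes -0.04, -0.02 and 0.01), with 15 of 16 lower in FOXO1-GFP KO+PI3Kdi.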

How the data were processed

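RNA sequencing of 12 libraries (TruSeq Stranded mRNA from 300 ng RNA, 75 bp paired reads) was deposited as 1 table of FPKM values for 13283 genes, rounded to 2 decimals. The authors aligned reads with STAR 2.7.1a to GRCm38.p6, counted reads per gene with STAR, dropped low genes (filterByExpr of edgeR), and normalised TMM-scaled values to the summed length of exons; the strand setting is not given in the sources used here. The table held 0 unused columns of values per sample.

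Groups came from the labels. Depth was recovered from genes of up to 400 bp, whose rounded values fall on whole reads: in held-out genes of 400 to 800 bp, 97.5 to 98.9% of values were within 0.2 of a whole read (40% by chance). Lengths came from GENCODE M21 (GRCm38; 13276 genes matched). Depth ran from 12.9 to 48.0 M (mega) reads; the errors given are the spread between libraries, which includes counting error.

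R 4.3.3 and limma 3.58.1 fitted 4 group means to log2(FPKM + 0.1) of all 12 libraries, with a mean-variance trend and Benjamini-Hochberg adjustment over all genes; 5 contrasts were read, two-sided. Replicate numbers paired libraries within a genotype (correlations 0.594 to 0.838), whereas across genotypes libraries of 1 number correlated at -0.499 to 0.730. The replicate block was a random effect of genotype by number (consensus correlation 0.757), or fixed terms as an alternative. Intervals are 95% and from the blocked fit unless stated. Voom on reads estimated from depth, and the blocked forms of other alternatives, were added after the data were seen. Named genes were Foxo1, the 10 members, up to 3 called genes per direction of the G1/S list and the 3 most similar genes of each member with a mean of at least 1 FPKM and no predicted gene model; exceptions are stated. The members and gene lists were chosen with earlier results of these data known, and support nothing independently. Fits were tested on simulated data in which the libraries of a pair varied together and 200 genes were changed by a log2 of 1 in WT+PI3Kdi. Without a block 61% of these were called, against 91.5% with the block and 87% with fixed terms. Unchanged genes called in that comparison were 0, 2 and 3. Smaller changes, such as those of the members, were not simulated. Every simulated gene had a pair effect, so the gain with the block was set in advance and is no support for it here. Promoters are from RefSeq. The authors' fold changes were not used. One marker of the B cell list is not reported here.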

Additional observations from a re-analysis of the deposited data

Results flagged for a closer look

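The pair differences of Ccne1 with PI3Kdi had opposite signs in the genotypes: all 3 WT pairs were lower (by 0.10, 0.02 and 0.10 on the log2 scale) and all 3 FOXO1-GFP KO pairs higher (by 0.06, 0.19 and 0.01), a pattern that 3.03% of all genes showed in either order. The response in FOXO1-GFP KO minus that in WT CTL was 0.16. Tested directly over all genes with limma, this difference had an adjusted p of 1.0 without a block and 0.419 with the replicate block within genotype, so it did not pass, and the response of neither genotype passed on its own.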

How the results depend on the processing

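Counts of called genes with PI3Kdi moved most with the pairing. With the replicate block within genotype, genes called with PI3Kdi went from 13 to 342 in WT and from 6 to 370 in FOXO1-GFP KO CTL, and with the pairs as fixed terms to 254 and 328. The block with voom gave 356 and 446, with a pseudocount of 1 FPKM 120 and 117, and with median-of-ratios scaling 343 and 378. Voom without the block gave 22 in WT. For the difference of responses, the count went from 0 to 3 (block), 3 (fixed terms), 6 (voom with block), 9 (pseudocount of 1 with block) and 7 (median-of-ratios with block). Of the members, 1 was called in WT CTL, against 0, with the block, the fixed terms and the block under voom or median-of-ratios. The adjusted p was passed by 2 members in WT CTL in each blocked form (4 with fixed terms) and by 1 in FOXO1-GFP KO CTL (2 with fixed terms), against 0. Of the G1/S list, 1 gene was called in WT CTL, against 0, with the block and with the block under median-of-ratios. The blocked forms of the alternatives and voom were chosen after seeing the data. Fitting only the groups compared called 0 genes in WT, 0 in FOXO1-GFP KO CTL, 0 between genotypes without PI3Kdi (44 otherwise) and 94 with it (193 otherwise), where 0 members passed. A filter at a mean of 1 FPKM, which tests fewer genes, gave 111 there, and a pseudocount of 1 with the block gave 23 without PI3Kdi. Other than by that filter and the smaller fits, the cause was not tested.

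Signs turned for 2 members near 0 under other scaling: Rbl2 in WT was 0.0275 with median-of-ratios, with or without the block, and the Ccng2 difference of responses was -0.0164 with median-of-ratios and -0.0064 with voom, with or without the block. Scaling moved the median of all genes by under 0.04.

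Leaving out 1 library, which leaves 2 in its group and a spread pooled over groups, or 1 pair, in 30 fits with and without the block, gave 1 to 372 genes called in WT, 0 to 480 in FOXO1-GFP KO CTL, 0 to 41 between genotypes without PI3Kdi, 50 to 196 with it and 0 to 16 for the difference of responses. Members called ranged from 0 to 1 in both genotypes with PI3Kdi. Members past the adjusted p ranged from 0 to 2 in WT, and from 0 to 1 in FOXO1-GFP KO CTL and between genotypes with PI3Kdi. The G1/S list had 0 to 1 called in WT. Log2 fold changes that changed sign in these fits ranged, with PI3Kdi in WT, from -0.0911 to 0.12 (Cdkn2c), -0.17 to 0.17 (Rbl2), -0.25 to 0.0119 (Ccnd3) and -0.0865 to 0.0893 (Cdk4). In FOXO1-GFP KO CTL they ranged from -0.0910 to 0.0737 (Cdkn2c), -0.0332 to 0.18 (Rbl2), -0.06 to 0.23 (Ccnd3), -0.0484 to 0.52 (Ccng2), -0.0266 to 0.0594 (Cdk4) and -0.0182 to 0.20 (Cdk6). Between genotypes without PI3Kdi they ranged from -0.0680 to 0.44 (Cdkn1b), -0.0365 to 0.16 (Cdkn2c), -0.12 to 0.19 (Rbl2), -0.15 to 0.26 (Ccnd2), -0.0276 to 0.24 (Ccnd3), -0.0714 to 0.45 (Ccng2), -0.0512 to 0.12 (Cdk4) and -0.14 to 0.12 (Cdk6). With PI3Kdi the ranges were -0.0544 to 0.37 (Cdkn1b), -0.0618 to 0.14 (Cdkn2c), -0.0660 to 0.27 (Ccnd2), -0.0651 to 0.46 (Ccng2), -0.0294 to 0.0893 (Cdk4) and -0.21 to 0.0222 (Cdk6). For the difference of responses they were -0.32 to 0.19 (Cdkn1b), -0.12 to 0.10 (Cdkn2c), -0.0783 to 0.26 (Rbl2), -0.21 to 0.26 (Ccnd2), -0.28 to 0.29 (Ccng2), -0.0857 to 0.0901 (Cdk4) and -0.25 to 0.06 (Cdk6). Across members, comparisons and alternatives, 1819 log2 fold changes kept their direction and side of the threshold, 60 passed newly, 21 lost it and 170 changed sign. Ccnd1, at group means under 0.2 FPKM, rests on few reads.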
